A study of Homo sapiens with 24 samples.

Results

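The genes described here are 40 genes that act in G2 and mitosis, chosen by name from a list of mitosis genes and looked up in the deposited count table of 21925 genes. A row was found for 31 of the 40, all 31 passed the filter on low counts, and AURKA, CDC25B, CENPF, TPX2, NEK2, HMMR, ECT2, UBE2C and PTTG1 were not analysed here. Cells enter mitosis when cyclin A and cyclin B activate the kinase CDK1. Most genes of the set are transcribed late in the cell cycle, when the DREAM complex, which holds them silent in early phases, gives way to complexes with MYBL2 and FOXM1. Their RNA is therefore a common readout of how many cells of a culture are cycling.

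The RNA came from K562 cells, a human erythroleukaemia line, and was polyadenylated RNA sequenced with a strand-specific protocol. Every culture, controls included, carried a nuclease-dead Cas9 fused to the KRAB repressor under a doxycycline-inducible promoter, received 1 sgRNA and was induced with doxycycline for 24 h, and 10000 cells were lysed per library. The 24 libraries comprise 3 biological replicates of 8 sgRNAs. GATA1TSS-Guide1 and GATA1TSS-Guide2 target the start site of GATA1, eHDAC6-Guide1 and eHDAC6-Guide2 target a putative enhancer of GATA1 called eHDAC6, and NC-Guide1 to NC-Guide4 are non-targeting controls. GATA1 itself stood at 84.8 ± 37.1 CPM (SD, n = 6 libraries) with the GATA1TSS sgRNAs, 254 ± 8.72 CPM (n = 6) with the eHDAC6 sgRNAs and 363 ± 28.9 CPM (n = 12) with NC, where CPM is a gene's count brought to a common library total. In bulk RNA, fewer cells in G2 and M and less of these RNAs per cell cannot be told apart.

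The promoters of the measured genes are shown first, because the sequence features through which this gene class is regulated are features the list did not use. RefSeq promoters (GRCh38.p14, 250 bases before to 50 bases after the start) were found for 29 of the 31 genes. The CHR, a site bound by the DREAM complex, was searched as TTTGAA or TTCGAA, and the CCAAT box, bound by the NF-Y factor, as CCAAT, each on both strands. A match of one could overlap a match of the other. A CHR word stood in 21 of the 29 promoters (72.4%) against 16.6% of the promoters of 27305 genes. A CCAAT word stood in 22 (75.9%) against 35.7%, and both stood in 17 (58.6%) against 6.58%. Among the genes without a CHR word were CCNA2, CCNB1, CENPE and KIF2C, and a missing word says only that these letters were not in the window. The 4 promoter stretches printed below have both words upstream of the start with the CHR word nearest to it. Each ends at the base before the start, reads 5′ to 3′ on the strand of its gene, and has the CHR and CCAAT words of either strand in capitals.
CKAP2L: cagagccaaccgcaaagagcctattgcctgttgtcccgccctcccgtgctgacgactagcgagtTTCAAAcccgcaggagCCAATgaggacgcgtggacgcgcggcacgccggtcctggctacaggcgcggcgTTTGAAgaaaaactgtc
CENPA: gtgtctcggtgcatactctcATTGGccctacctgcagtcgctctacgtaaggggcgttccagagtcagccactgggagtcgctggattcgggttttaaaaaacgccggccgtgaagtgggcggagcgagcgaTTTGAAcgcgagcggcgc
PRC1: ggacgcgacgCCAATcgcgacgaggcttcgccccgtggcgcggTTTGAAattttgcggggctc
KIF11: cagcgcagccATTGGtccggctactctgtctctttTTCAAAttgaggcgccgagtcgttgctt

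On GRCh38.p14 these stretches lie at chr2:112764610-112764759 (minus strand) for CKAP2L, chr2:26785906-26786055 (plus strand) for CENPA, chr15:90994536-90994598 (minus strand) for PRC1 and chr10:92593067-92593129 (plus strand) for KIF11. Between the CHR word nearest the start and the start itself lay 11, 12, 14 and 22 bases, in the same order. CKAP2L is a spindle pole protein, CENPA the histone that marks centromeres, PRC1 the protein that bundles the microtubules of the central spindle, and KIF11 the motor that pushes the spindle poles apart. Against all 12 NC libraries PRC1 was higher with both elements and CKAP2L was lower with eHDAC6, results that changed with the controls used, as given below. Neither CENPA nor KIF11 passed the test for either element.

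Some libraries stood apart in these genes, and the results are given with and without them. The control libraries fell into a subset of 8 (every library of NC-Guide1 and NC-Guide2, with replicate 1 of both other control sgRNAs) and a subset of 4 (replicates 2 and 3 of NC-Guide3 and NC-Guide4). This split was known from an earlier look at the same data, and the labels do not give it. CENPE, MKI67 and KIF4A were higher in every one of the 8 than in any of the 4, by 0.56, 0.37 and 0.25 on the log2 scale, and KIF2C and AURKB were lower in every one, by 0.21 and 0.25. These are 5 of 31 genes whose subsets did not overlap, against 11.7% of all genes tested. NC-Guide2 replicate 1 was above all 23 other libraries for 16 of the 31 genes (19.4% of 12417 genes) and below all of them for 5 (18.8%). CENPE had 311 CPM in that library and at most 224 CPM elsewhere, TTK 123 against at most 81.0, and AURKB 93.3 against at least 110.1. GATA1TSS-Guide2 replicate 2 was the shallowest library, with 4290343 counts where the others had up to 23205811. It was the highest of all 24 for ANLN, KIF23 and KIF4A and the highest after NC-Guide2 replicate 1 for CENPE, ASPM and TOP2A among others. It was also the lowest of all 24 for BIRC5, at 149.7 CPM, and the lowest after NC-Guide2 replicate 1 for UBE2S, at 233.9 CPM. The share of all genes at an extreme in that library is not given here.

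**Figure D1:**
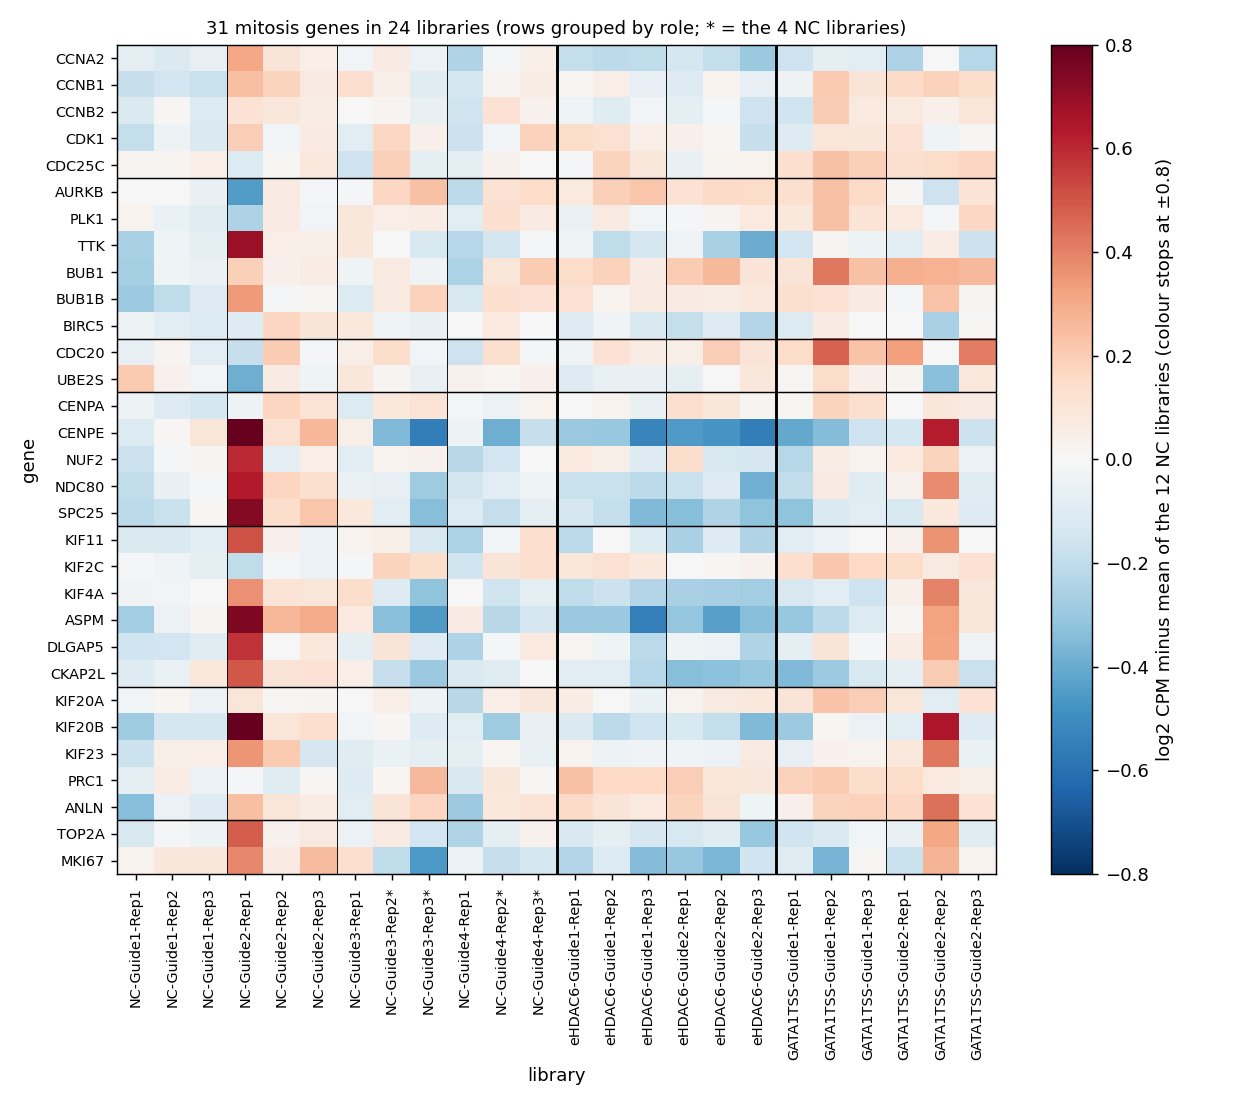
Log2 CPM of each of the 31 genes (rows, grouped by role) in each of the 24 libraries (columns, grouped by sgRNA), as the difference from the mean of the 12 NC libraries. NC-Guide2 replicate 1 and GATA1TSS-Guide2 replicate 2 hold most of the strong red cells. The eHDAC6 libraries are blue for CENPE, ASPM, CKAP2L and MKI67. So are the 4 NC libraries of the smaller subset for CENPE, ASPM and MKI67, and the GATA1TSS-Guide1 libraries for CENPE, ASPM and CKAP2L. BUB1 is red in every GATA1TSS library and in every eHDAC6 library.

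Exon length ran along with these departures. Over the 31 genes the correlation of a library's deviation from the control mean with the log2 length of the merged exons was 0.565 in NC-Guide2 replicate 1 and 0.656 in GATA1TSS-Guide2 replicate 2. The same correlation was between -0.561 and -0.371 in the 4 control libraries of the smaller subset, between -0.573 and -0.376 in the 6 eHDAC6 libraries and between -0.631 and -0.256 in the other GATA1TSS libraries. In the other 7 libraries of the larger control subset it ran from -0.311 to 0.459. The control mean includes NC-Guide2 replicate 1, so its own departure enters every value. These are descriptions over 31 genes that share libraries, and over 12417 genes the correlation in NC-Guide2 replicate 1 was 0.0829. The longest members were MKI67 (12495 bases), ASPM (10888), CENPE (8615) and KIF20B (6450). The part of transcript length in the results below was not tested.

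**Figure D2:**
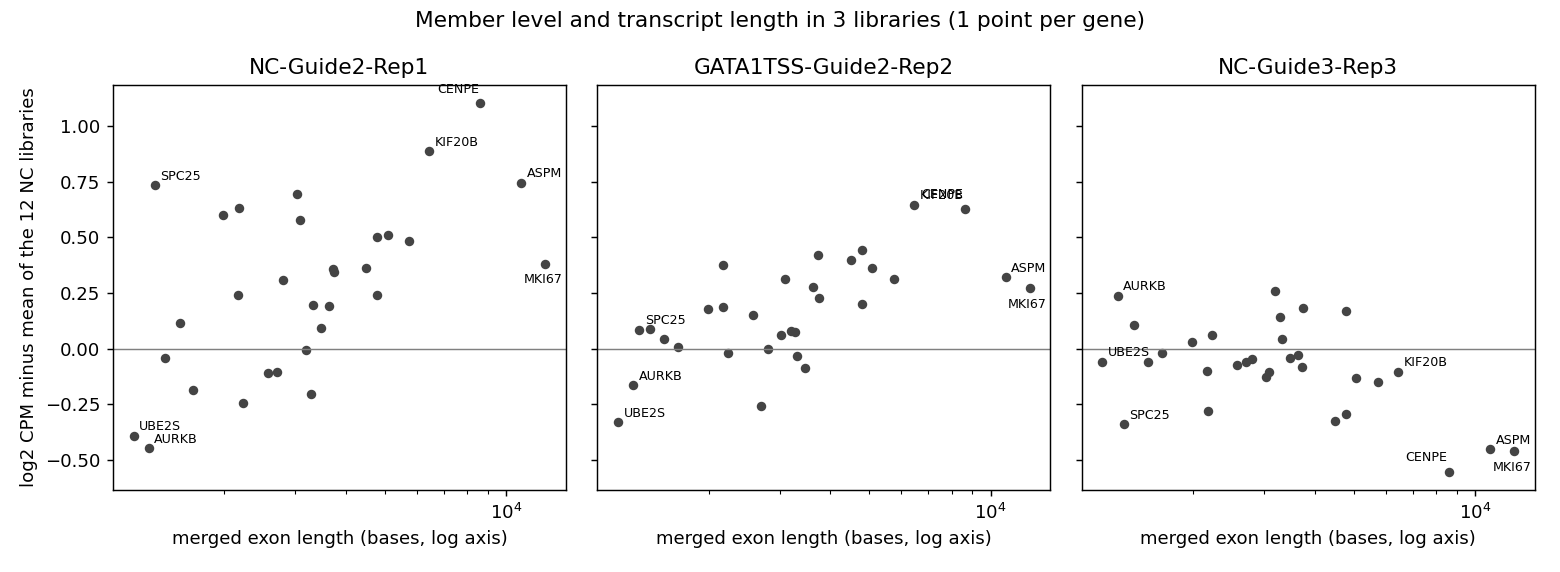
Log2 CPM of each gene as the difference from the mean of the 12 NC libraries (vertical axis) against its merged exon length in bases (horizontal, log axis), for 3 libraries. Long genes such as CENPE and ASPM lie high in NC-Guide2 replicate 1 and GATA1TSS-Guide2 replicate 2 and low in NC-Guide3 replicate 3, whose correlation was -0.507. Length does not order all genes. In NC-Guide2 replicate 1 the short SPC25 (1346 bases) lies at 0.73, near ASPM at 0.74, and the longest, MKI67, at 0.38.

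Per length of transcript, the most abundant member in the controls was UBE2S, the enzyme that extends ubiquitin chains for the anaphase-promoting complex, at 248 ± 22.6 CPM per kb of merged exons (n = 12). TOP2A, the topoisomerase that untangles sister chromatids, followed at 162 ± 22.0 CPM per kb, ahead of the kinase PLK1 at 122 ± 8.60, the microtubule depolymerase KIF2C at 122 ± 10.1 and the activator of the anaphase-promoting complex CDC20 at 116 ± 9.45. Those last 3 differ by less than their spread. CKAP2L at 13.4 ± 2.02 and KIF23, a motor of the central spindle, at 13.6 ± 1.52 CPM per kb were the least abundant. The genes lie on 14 chromosomes. On hg19, exons of PLK1, CCNA2, PRC1, KIF20A, CDC25C and ANLN overlap a gene on the opposite strand (ERN2, EXOSC9, PRC1-AS1, CDC23, FAM53C and KIAA0895), those of BUB1B overlap PAK6 on the same strand, and KIF4A has a close copy, KIF4B. The sources used here do not say whether strand was used in counting, which bears on the genes with a partner on the opposite strand. It does not bear on the exons that BUB1B shares with PAK6 or on the copy of KIF4A. The values of these 8 genes are less certain.

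The comparison of GATA1TSS with NC asks what loss of GATA1 transcription does to these genes. Most of the set did not pass the test with the start site sgRNAs, and a small group was higher. Of the 31 genes 6 rose and 1 fell at an adjusted p under 0.05 in edgeR's quasi-likelihood test (Benjamini-Hochberg over the 13147 genes tested), which is 22.6% where 27.2% of all genes tested were called, with 13.5% higher and 13.7% lower. The share of members was not above that background, and the GATA1TSS and NC libraries overlapped for each of the 31, where they did not for 1.79% of all genes tested. The genes that rose were the checkpoint kinase BUB1, CDC20, the CDK1-activating phosphatase CDC25C, KIF2C, the cytokinesis scaffold ANLN and PRC1, by 1.10-fold to 1.21-fold, and the gene that fell was the cyclin CCNA2. The median log2 change was 0.04 over the 31 genes and -0.003 over all genes tested.

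BUB1 recruits checkpoint proteins to kinetochores that are not yet attached. Its level was 252 CPM in the lowest, 282 in the median and 314 in the highest GATA1TSS library, and 195, 235 and 269.8 CPM in the lowest, median and highest NC library. The log2 change was 0.26 with an SE of 0.06 (edgeR adjusted p = 0.0013). The GATA1TSS libraries were all above the NC mean, and 5 of them were above the highest NC library. CDC20, which turns on the anaphase-promoting complex, had 194, 234 and 267 CPM (lowest, median and highest) with GATA1TSS and 169.8, 192 and 221.6 CPM with NC. Its log2 change was 0.27 with an SE of 0.06 (edgeR adjusted p = 0.0020), and the groups overlapped through GATA1TSS-Guide1 replicate 1 and GATA1TSS-Guide2 replicate 2. BUB1 and CDC20 were called with each GATA1TSS sgRNA on its own and in all 24 fits that left out 1 library.

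Among the cyclins and their kinase, the directions were mixed. CDC25C stood at 71.8, 73.5 and 77.2 CPM (lowest, median and highest) with GATA1TSS against 58.6, 66.4 and 74.8 with NC, a log2 change of 0.17 with an SE of 0.05 (edgeR adjusted p = 0.0166). A single NC library, NC-Guide3 replicate 2, reached into the GATA1TSS range. CCNA2, the cyclin of S phase and G2, stood at 242, 264 and 288 CPM against 244, 285 and 357 with NC. Its fall by 0.14 on the log2 scale (SE 0.05, edgeR adjusted p = 0.0473) lay just inside the threshold, and of 24 fits that left out 1 library it held in 7, those without eHDAC6-Guide2 replicate 3, GATA1TSS-Guide2 replicate 2, NC-Guide2 replicate 2 or 3, NC-Guide3 replicate 1 or 3, or NC-Guide4 replicate 1. CCNB1, the main mitotic cyclin, had 207, 235 and 246 CPM against 187, 218 and 251, 0.13 apart on the log2 scale (edgeR adjusted p = 0.0522, SE 0.05), which was called in 4 of the 24, those without GATA1TSS-Guide1 replicate 1, NC-Guide2 replicate 1, NC-Guide3 replicate 1 or NC-Guide4 replicate 3. CDK1 did not pass, at 97.6, 108 and 114 CPM against 91.7, 103 and 119.8, with a 95% interval of the log2 difference from -0.09 to 0.15.

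Of the kinases, PLK1, which drives spindle assembly and mitotic exit, had 268, 290.2 and 319 CPM (lowest, median and highest) with GATA1TSS and 229, 279 and 298 with NC, which are 0.11 apart on the log2 scale (edgeR adjusted p = 0.1001). The differences of the other members of that role, AURKB, TTK, BUB1B and the passenger protein BIRC5, ran from -0.08 to 0.08. None of the 5 measured centromere and kinetochore genes (CENPA, CENPE, NUF2, NDC80 and SPC25) passed, with differences from -0.13 to 0.08. KIF2C stood at 420.0, 440.1 and 462 CPM with GATA1TSS and 346, 395 and 452 with NC, a rise of 0.14 (SE 0.05, edgeR adjusted p = 0.0244). That call was lost without GATA1TSS-Guide1 replicate 2, GATA1TSS-Guide2 replicate 1 or GATA1TSS-Guide2 replicate 3.

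In cytokinesis, PRC1 had 180.1, 193 and 202 CPM (lowest, median and highest) with GATA1TSS against 161, 175 and 209 with NC, a rise of 0.13 (SE 0.05, edgeR adjusted p = 0.0480). ANLN, which organizes the contractile ring, rose by 0.18 (SE 0.06, edgeR adjusted p = 0.0361). Both genes overlapped with the controls. Of the 24 fits that left out 1 library, PRC1 stayed called in 5 (without NC-Guide1 replicate 2, NC-Guide2 replicate 1, NC-Guide3 replicate 3 or NC-Guide4 replicate 2 or 3). ANLN lost its call in 7 (without GATA1TSS-Guide1 replicate 2 or 3, GATA1TSS-Guide2 replicate 2, NC-Guide1 replicate 1, NC-Guide2 replicate 3, NC-Guide3 replicate 1 or NC-Guide4 replicate 1). The S phase to mitosis markers TOP2A and MKI67 did not pass. TOP2A had 825, 872 and 1144 CPM against 779, 904 and 1287, and MKI67, which coats mitotic chromosomes, had 268, 337 and 419.6 CPM against 252, 359 and 452.

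Most of these calls changed with the control libraries used. Against the 4 controls of the smaller subset, 1 gene was called with GATA1TSS (10.2% of all genes tested), and it was none of the 7 above. It was ASPM, a spindle pole protein, at a log2 change of 0.25 (edgeR adjusted p = 0.0189), where its value against all 12 controls was -0.04 (adjusted p = 0.73). Against the 8 controls, 11 genes were called, all higher (33.1% of all genes tested, 18.9% higher). BUB1 and CDC20 kept a positive difference against the 4, of 0.18 and 0.22, that did not pass. CDC25C and CCNA2 stood at 0.13 and -0.15, close to their values against all 12, and KIF2C, PRC1 and ANLN at 0.00, 0.04 and 0.07. With the shallowest GATA1TSS library also left out, BUB1 at 0.18, CDC20 at 0.27 and ASPM at 0.21 were called higher and CCNA2 at -0.19 lower against the 4 (edgeR adjusted p = 0.0417, 0.0058, 0.0192 and 0.0101). Leaving out both that library and NC-Guide2 replicate 1 from the comparison with the remaining controls gave 7 higher and 2 lower, among them CCNB1 and CKAP2L but not ANLN. Without TMM scaling the split was 9 higher and 0 lower, and with edgeR's RLE scaling it was 6 higher and 0 lower. The shares of all genes called in these alternative fits are not given here, so the splits are not set apart from a shift of all genes. When the counts of each sgRNA were summed, so that sgRNAs were the replicates, only CDC20 was called. The count was 3 without GATA1TSS-Guide1 replicate 2 and 4 without GATA1TSS-Guide1 replicate 3, GATA1TSS-Guide2 replicate 1, GATA1TSS-Guide2 replicate 3 or NC-Guide1 replicate 1. For the sums and the fits with libraries left out, the shares are likewise not given, and these counts describe the members alone.

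**Figure D3:**
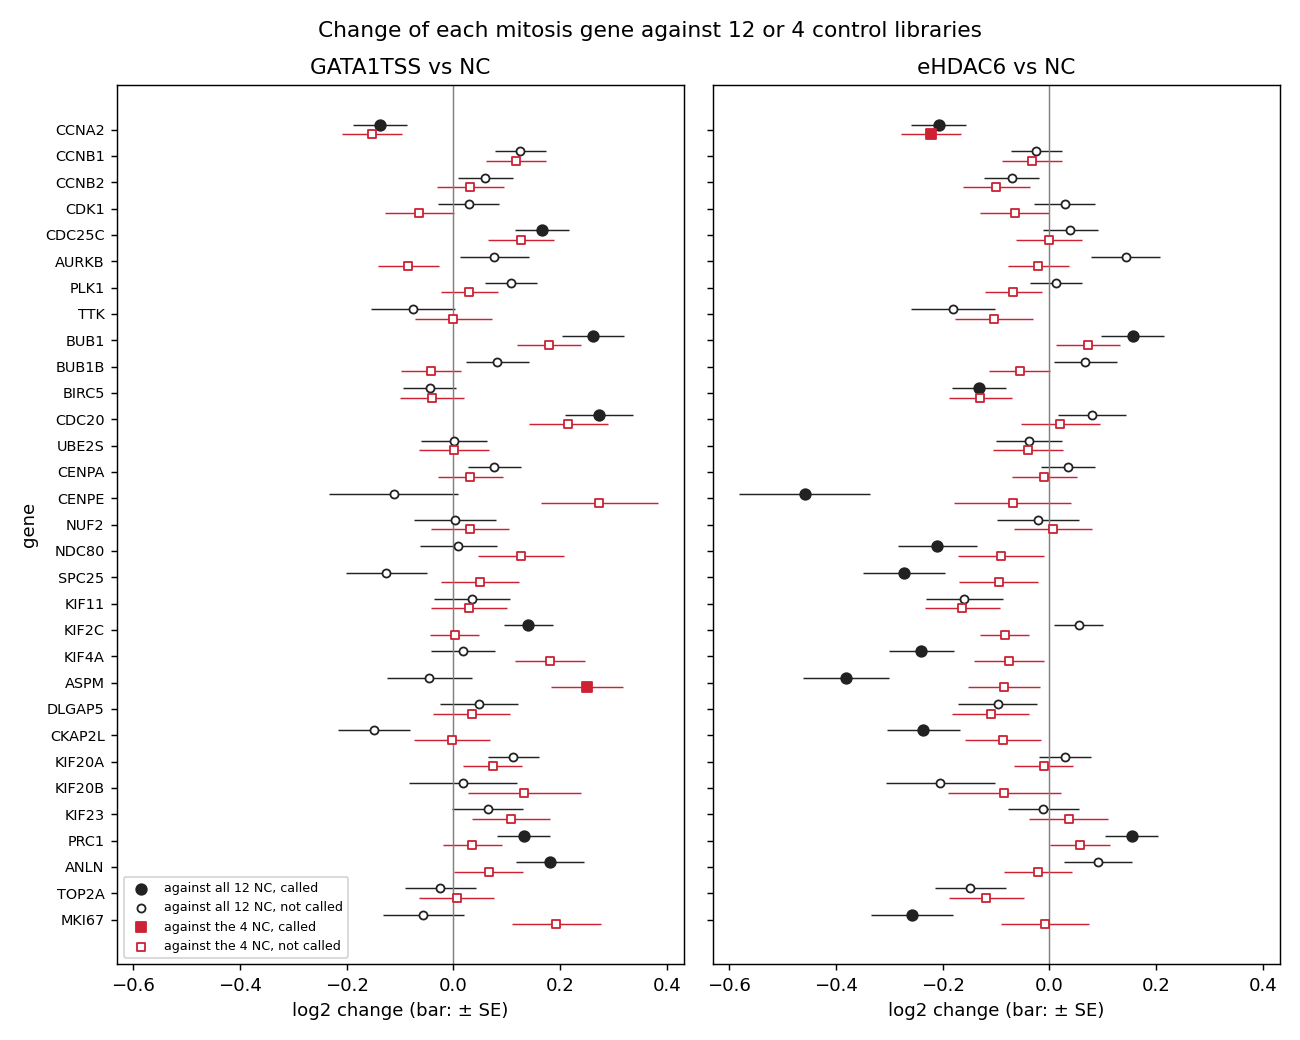
Log2 change of each of the 31 genes (rows, grouped by role) with GATA1TSS (left) and eHDAC6 (right), against all 12 NC libraries (black circles) or the 4 of the smaller subset (red squares), with bars of 1 SE and filled symbols for an adjusted p under 0.05. Filled circles are 7 on the left and 11 on the right, and each panel has 1 filled square, ASPM on the left and CCNA2 on the right.

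Repression of eHDAC6, which lowered GATA1 less, was compared with NC in the same fit. Most of the called genes fell here. Of the 31 genes 2 rose and 9 fell, 35.5% where 31.1% of all genes tested were called, 15.8% higher and 15.3% lower, so the share called was near the background. The eHDAC6 and NC libraries overlapped for each of the 31, where they did not for 1.66% of all genes tested. The genes that fell were ASPM, CCNA2, the motor KIF4A, the kinetochore motor CENPE, SPC25, CKAP2L, MKI67, NDC80 and BIRC5, to between 0.728 and 0.913 times the control level. PRC1 and BUB1 rose. The median log2 change was -0.04 over the 31 genes and -0.009 over all genes tested.

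The kinetochore genes held 3 of the falls. CENPE, the motor that carries chromosomes to the spindle equator, stood at 98.6 CPM in the lowest, 105 in the median and 118 in the highest eHDAC6 library, and at 98.7, 143 and 311 CPM with NC. It fell by 0.46 on the log2 scale (SE 0.12, edgeR adjusted p = 0.0060). The eHDAC6 libraries lay below each of the 8 controls and overlapped the 4, which ran from 98.7 to 127.5 CPM. SPC25 and NDC80 are subunits of the complex that holds microtubules at the kinetochore. SPC25 had 44.7, 46.9 and 52.0 CPM against 45.04, 54.0 and 95.04 and fell by 0.27 (SE 0.08, edgeR adjusted p = 0.0090). NDC80 fell by 0.21 (edgeR adjusted p = 0.0318), a call lost in 6 of 24 fits that left out 1 library (eHDAC6-Guide1 replicates 1, 2 and 3, eHDAC6-Guide2 replicate 3, NC-Guide1 replicate 3 or NC-Guide4 replicate 3). NUF2, a subunit of the same complex, differed by -0.02 and CENPA by 0.04.

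Of the 6 measured spindle genes 3 fell. ASPM, which focuses spindle poles, had 151, 151 and 127 CPM in eHDAC6-Guide1 replicates 1, 2 and 3 and 149.7, 137 and 146 in those of eHDAC6-Guide2, and the NC libraries ran from 135 through a median of 184 to 310.4 CPM. It fell by 0.38 (SE 0.08, edgeR adjusted p = 0.00094) and was called with each eHDAC6 sgRNA alone. All 6 libraries lay below each of the 8 controls, whose lowest was 153 CPM, and 5 of them lay among the 4 controls, which ran from 135 to 169 CPM, with eHDAC6-Guide1 replicate 3 below these. KIF4A, a motor that condenses chromosomes and sizes the central spindle, had 84.9, 86.8 and 91.5 CPM (lowest, median and highest) against 82.3, 102 and 133, a fall by 0.24 (SE 0.06, edgeR adjusted p = 0.0043). CKAP2L stood at 50.4, 53.0 and 59.8 CPM against 51.9, 62.5 and 90.1 and also fell by 0.24 (SE 0.07, edgeR adjusted p = 0.0100). KIF11 differed by -0.16, DLGAP5 by -0.10 and KIF2C, at 398, 416 and 434 CPM against 346, 395 and 452, by 0.05, none of which passed.

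CCNA2 was the only cyclin gene that passed, at 234, 251 and 262 CPM (lowest, median and highest) against 244, 285 and 357 with NC. It fell by 0.21 (SE 0.05, edgeR adjusted p = 0.0034) and held in all 24 fits that left out 1 library. CCNB1 had 197, 209 and 220.4 CPM against 187, 218 and 251, a difference of -0.02 with a 95% interval from -0.12 to 0.07. CDK1 had 92.3, 108 and 116 CPM against 91.7, 103 and 119.8 and differed by 0.03, and CDC25C had 63.1, 66.7 and 74.3 CPM against 58.6, 66.4 and 74.8 and differed by 0.04. All 3 lay within the control range.

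MKI67 stood at 270.0, 288 and 322 CPM (lowest, median and highest) with eHDAC6 and 252, 359 and 452 with NC, and fell by 0.26 (SE 0.08, edgeR adjusted p = 0.0120). TOP2A had 748, 847 and 873 CPM against 779, 904 and 1287, a difference of -0.15 that did not pass (edgeR adjusted p = 0.089). BIRC5, also known as survivin, fell by 0.13 (edgeR adjusted p = 0.0475), a call that held in 4 of 24 fits that left out 1 library (without eHDAC6-Guide2 replicate 2, GATA1TSS-Guide2 replicate 2, NC-Guide2 replicate 1 or NC-Guide3 replicate 3). Against these, PRC1 had 186, 195 and 205 CPM where NC had 161, 175 and 209 and rose by 0.15 (SE 0.05, edgeR adjusted p = 0.0188), and BUB1 had 245, 262 and 281 CPM where NC had 195, 235 and 269.8 and rose by 0.16 (SE 0.06, edgeR adjusted p = 0.0435). The call of BUB1 held in 11 of the 24 fits (without eHDAC6-Guide2 replicate 3, GATA1TSS-Guide1 replicate 1 or 2, GATA1TSS-Guide2 replicate 2 or 3, NC-Guide1 replicate 2 or 3, NC-Guide2 replicate 1, NC-Guide3 replicate 2 or NC-Guide4 replicate 2 or 3). That of PRC1 was lost without eHDAC6-Guide1 replicate 1 or eHDAC6-Guide2 replicate 1. CDC20, at 189, 204 and 221 CPM, and PLK1, at 262, 273 and 287 CPM, differed from NC by 0.08 and 0.01.

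Against the 4 controls of the smaller subset a single member was called with eHDAC6, against 1.49% of all genes tested. CCNA2 fell by 0.22 (edgeR adjusted p = 0.0459), almost its value against all 12. The other falls shrank, to -0.08 for ASPM, -0.07 for KIF4A and CENPE, -0.09 for SPC25 and CKAP2L and -0.01 for MKI67, and BIRC5 kept -0.13 without passing. Against the 8 controls 6 genes were called higher and 6 lower (37.1% of all genes tested). With the counts of each sgRNA summed, 0 of 31 were called in edgeR, with 6 at an unadjusted p under 0.05. Leaving out both outlying libraries from the comparison with the remaining controls gave 2 higher and 9 lower, as with all libraries. Without eHDAC6-Guide1 replicate 1 alone 7 of the 31 were called. For the sums and the fits with libraries left out, the shares of all genes called are not given here, so their counts describe the members alone.

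**Figure D4:**
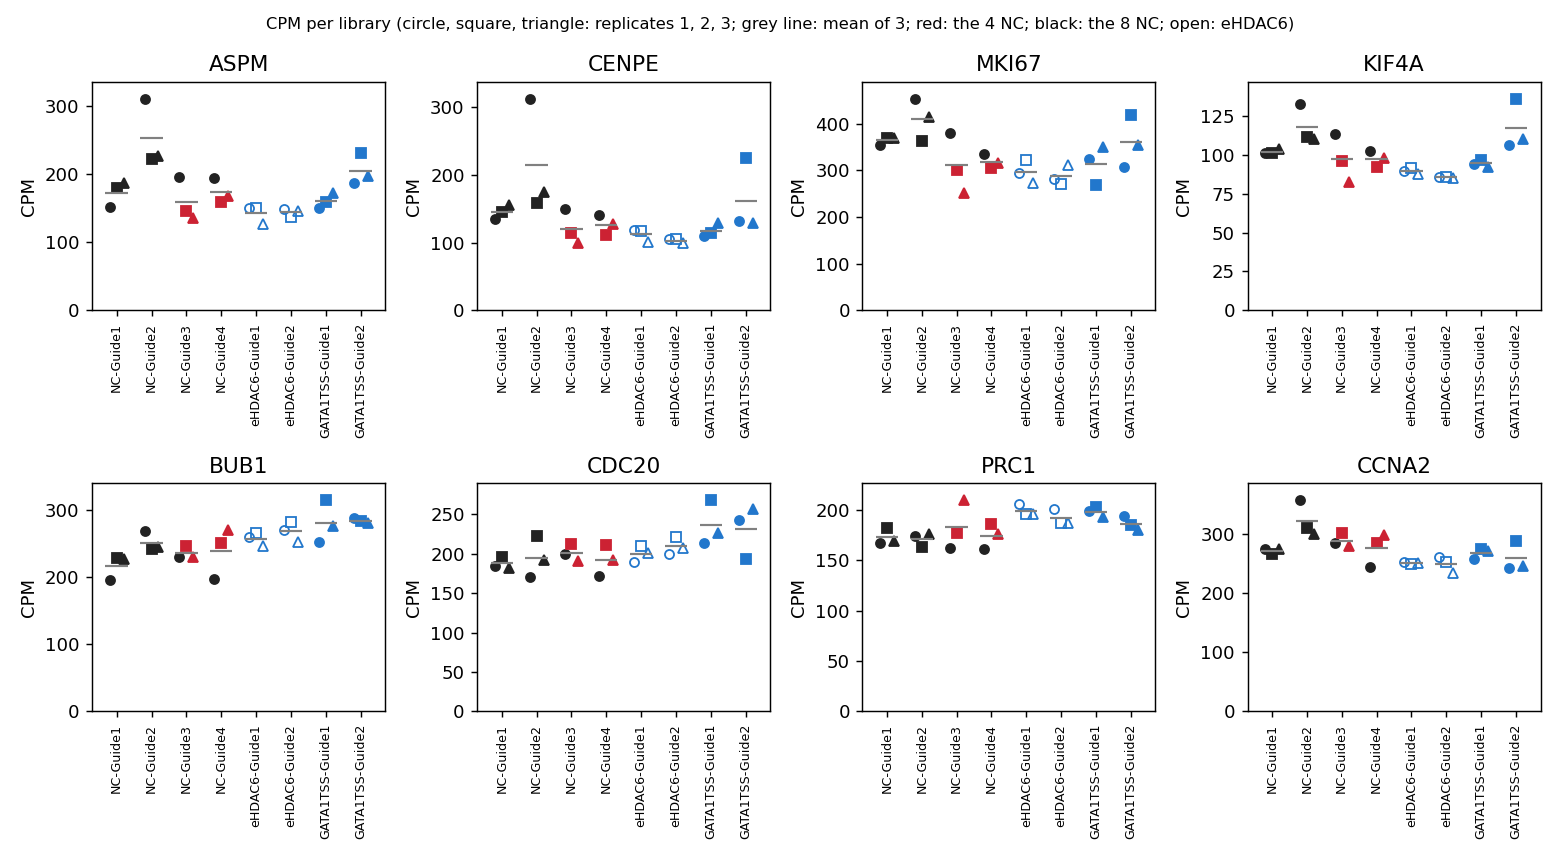
CPM of 8 genes in every library (vertical axis, from 0) by sgRNA (horizontal axis), with symbols for the replicates, a grey line at the mean of 3, red for the 4 NC libraries of the smaller subset and open symbols for eHDAC6. For ASPM, CENPE, MKI67 and KIF4A the eHDAC6 values lie with the red controls and under the black ones, and for BUB1 and CDC20 the GATA1TSS means are the highest of the 8 sgRNAs.

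The direct comparison of the elements does not use the levels of the controls, which enter only through the shared scaling, spread and filter. The difference, eHDAC6 minus GATA1TSS, was below 0 for 29 of the 31 genes (93.5%, where 50.3% of all genes tested were below 0), PRC1 and AURKB being the exceptions. Its median was -0.10 where that of all genes tested was -0.001. The libraries did not separate in this, since the median difference of the members from the control mean was -0.08 in GATA1TSS-Guide1 replicate 1, lower than in every eHDAC6 library but eHDAC6-Guide2 replicate 3 (-0.16). No single gene passed in edgeR, where 1.53% of all genes tested were called, 10 of the 31 had an unadjusted p under 0.05 (15% of all genes tested), and DESeq2 called 2, both lower. KIF4A ran from 84.9 to 91.5 CPM with eHDAC6 and from 92.0 to 136 with GATA1TSS, so that the groups did not overlap (1 of 31 members, 1.31% of all genes tested), at a difference of -0.26 (SE 0.07, edgeR adjusted p = 0.0579). ASPM ran from 127 to 151 CPM against 150.2 to 231, a difference of -0.34 (SE 0.09, edgeR adjusted p = 0.0597). CENPE differed by -0.35 (adjusted p = 0.23), or by -0.20 (0.54) without GATA1TSS-Guide2 replicate 2, NDC80 by -0.22 (0.21), CDC20 by -0.19 (0.21) and CCNB1 by -0.15 (0.19).

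ASPM and KIF4A lie at the threshold of that comparison. Both were the genes that DESeq2 called (adjusted p = 0.022 for each), and both passed in edgeR when the 4 or the 8 controls alone entered the fit. The fit of the elements with the 4 controls called 3 genes lower, these and CENPE at -0.34 (edgeR adjusted p = 0.0021, 0.0118 and 0.0444 for ASPM, KIF4A and CENPE; 4.9% of all genes tested were called, 1.95% lower). Without the shallowest GATA1TSS library that fit called 4, with CDC20 added at -0.25 (edgeR adjusted p = 0.0109), and KIF4A, ASPM and CENPE at -0.21, -0.29 and -0.20. In the fit of all 24 libraries, leaving out NC-Guide2 replicate 1, NC-Guide3 replicate 1, NC-Guide3 replicate 3 or NC-Guide4 replicate 1 brought both ASPM and KIF4A under the threshold, and leaving out GATA1TSS-Guide2 replicate 1 brought KIF4A under it. Leaving out both outlying libraries together left CDC20 as the gene called, at -0.24 (edgeR adjusted p = 0.0447). With sgRNAs as replicates 0 of 31 were called, 1 at an unadjusted p under 0.05. For DESeq2, the 8 controls, the fits with libraries left out and sgRNAs as replicates, the shares of all genes called are not given here. Those counts describe the members alone.

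The sgRNAs of an element were then set side by side. With GATA1TSS-Guide1 3 genes were called against NC (12% of all genes tested), CDC20 at 0.28 and BUB1 at 0.25 higher and CKAP2L at -0.26 lower (edgeR adjusted p = 0.0227, 0.0262 and 0.0470). With GATA1TSS-Guide2, which left less GATA1 (53.1 ± 9.67 against 117 ± 18.04 CPM, n = 3 each), 3 were called (24.8%), BUB1 at 0.27, CDC20 at 0.26 and ANLN at 0.23 (edgeR adjusted p = 0.0089, 0.0202 and 0.0396). Without TMM scaling these counts became 6 and 7, all higher, in a fit whose shares of all genes called are not given here. The first was 0 without GATA1TSS-Guide1 replicate 2 or 3, and the second was 0 without GATA1TSS-Guide2 replicate 1. For all fits with a library left out, here and below, the shares of all genes called are not given. Their counts describe the members alone. Without GATA1TSS-Guide2 replicate 2 the 3 genes called were BUB1, CDC20 and, lower, CCNA2 at -0.24 in place of ANLN. Between the GATA1TSS sgRNAs 0 of 31 genes were called in edgeR (3.48%), 4 had an unadjusted p under 0.05 (17.7%) and DESeq2 also called 0. Without NC-Guide3 replicate 1 the count was 1. The smallest p-values were those of KIF4A, 0.30 higher with GATA1TSS-Guide2 (edgeR adjusted p = 0.091), ASPM at 0.34 (0.15) and CENPE at 0.44 (0.24). Without GATA1TSS-Guide2 replicate 2, where CENPE had 224 CPM and the other replicates 132 and 129, these differences were 0.19, 0.26 and 0.15. ASPM had 186.7, 231 and 197 CPM in replicates 1, 2 and 3 of GATA1TSS-Guide2 and 150.2, 160.0 and 172 in those of GATA1TSS-Guide1, so these sgRNAs did not overlap, as for 3 of the 31 genes and 25.7% of all genes tested. Against the 4 controls, ASPM at 0.42, CENPE at 0.48, KIF4A at 0.33 and MKI67 at 0.29 were called higher with GATA1TSS-Guide2 (edgeR adjusted p = 0.00056, 0.0102, 0.0044 and 0.0417; 19.2% of all genes tested were called, 9.33% higher), and 0 were called with GATA1TSS-Guide1 (0.35%; 3 at an unadjusted p under 0.05). Without the shallow replicate 2 of GATA1TSS-Guide2, ASPM at 0.34, KIF4A at 0.23 and CDC20 at 0.31 were called higher and CCNA2 at -0.25 lower against the 4 (edgeR adjusted p = 0.0022, 0.0168, 0.0079 and 0.0047), and CENPE at 0.21 and MKI67 at 0.17 did not pass (0.071 and 0.21).

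With eHDAC6-Guide1 3 genes were called against NC (16.7%), ASPM at -0.39, CCNA2 at -0.20 and PRC1 at 0.18 (edgeR adjusted p = 0.0138, 0.0366 and 0.0490). With eHDAC6-Guide2 7 were called, all lower (19.2%, and 8.91% lower), namely CKAP2L, ASPM, KIF4A, CENPE, CCNA2, SPC25 and MKI67, by 0.21 to 0.52 on the log2 scale. Between the eHDAC6 sgRNAs 0 of 31 were called (0.0152% of all genes tested), 0 had an unadjusted p under 0.05 (3.63%) and DESeq2 called 0. For eHDAC6-Guide1 the count was 0 without its replicate 3, 1 without its replicate 1 or 2, NC-Guide1 replicate 3 or NC-Guide3 replicate 2, and 5 without GATA1TSS-Guide2 replicate 2 or NC-Guide3 replicate 3. For eHDAC6-Guide2 it was 2, 1 and 0 without its replicate 1, 2 and 3. The shares of all genes called in these fits with 1 library left out are not given here, so these counts describe the members alone. GATA1 stood at 247 ± 5.29 and 260.1 ± 6.16 CPM (n = 3 each) with these sgRNAs.

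The controls gave a background for differences between sgRNAs of no known target. Among the 4 NC sgRNAs 6 of the 31 genes were called (12.3% of all genes tested), namely ASPM, SPC25, CENPE, NDC80, CCNB1 and KIF20B. Without NC-Guide2 replicate 1 the count was 0, with 5 members at an unadjusted p under 0.05 and 2.01% of all genes called in edgeR. For the next fits the shares of all genes called are not given here, so their counts describe the members alone. The count was 10 without NC-Guide2 replicate 2 and 11 without NC-Guide3 replicate 1. DESeq2 called 9. ASPM shows the size of that spread, at 153, 179 and 188 CPM in NC-Guide1, 310.4, 222.5 and 227 in NC-Guide2, 196, 147 and 135 in NC-Guide3 and 194, 159 and 169 in NC-Guide4 (replicates 1, 2 and 3). The lowest NC library for ASPM thus lay below 5 of the 6 eHDAC6 libraries.

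The other genes of the pathway were read from lists of names. Of 54 measured mitosis genes outside the set, 15 were called with GATA1TSS (27.8%, 13 of them higher) and 14 with eHDAC6 (25.9%, 6 of them higher), with medians of 0.05 and -0.02. Of all genes tested 27.2% and 31.1% were called, so the first share was near the background and the second below it. SKA1, a microtubule-binding protein of the kinetochore, fell with both, by 0.58 with GATA1TSS and 0.57 with eHDAC6 on the log2 scale (edgeR adjusted p = 4.3e-06 and 1.3e-05). SPAG5, a spindle protein also called astrin, was higher by 0.29 and 0.28, and CDCA5, which protects sister chromatid cohesion, by 0.26 and 0.18. CEP55, needed for the last cut of cytokinesis, was higher by 0.31 with GATA1TSS, and SMC2, a condensin subunit, and the checkpoint protein MAD2L1 were lower by 0.27 and 0.26 with eHDAC6. CENPI, a centromere protein, was the only one called between the elements, where it was lower with eHDAC6 by 0.35 (edgeR adjusted p = 0.026). Both comparisons share the NC libraries. Against the 4 controls 3 rose and 1 fell with GATA1TSS and 0 were called with eHDAC6, with 5 at an unadjusted p under 0.05. Of all genes tested, 10.2% were called with GATA1TSS and 1.49% with eHDAC6 against the 4.

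Of 13 measured regulators of mitotic transcription, 4 were called with GATA1TSS (30.8%, against 27.2% of all genes tested), 1 of them higher, and 9 with eHDAC6 (69.2%, against 31.1%), 4 of them higher. FOXM1, the activator of late cell cycle genes, rose by 0.19 and 0.17 (edgeR adjusted p = 0.027 and 0.037). E2F5, a repressive E2F of the DREAM complex, fell by 0.54 and 0.43, and NFYB, a subunit of the CCAAT-binding factor, by 0.31 and 0.39. LIN37, a core DREAM subunit, rose by 0.31 and LIN54, the subunit that contacts the CHR, fell by 0.26 with eHDAC6. Against the 4 controls 0 of these 13 were called with either element, with 1 and 3 at an unadjusted p under 0.05. Of all genes tested, 10.2% were called with GATA1TSS and 1.49% with eHDAC6 against the 4, so a count of 0 says little for so short a list.

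Genes of mitotic entry and exit that are not transcribed in phase were also read, with 1 of 20 higher with GATA1TSS (5%, against 27.2% of all genes tested) and 1 higher and 2 lower with eHDAC6 (15%, against 31.1%). FZR1, which keeps the anaphase-promoting complex active after mitosis, rose by 0.36 and 0.25. CDC27, a subunit of that complex, fell by 0.22 and the kinase WEE1, which restrains CDK1, by 0.15 with eHDAC6. Of 17 cell cycle inhibitors and G1 cyclins, 11 were called with GATA1TSS (64.7%), 6 of them higher, and 7 with eHDAC6 (41.2%), 2 of them higher. CCND2, a D-type cyclin of G1, fell by 0.99 and 0.64 and was called against the 4 controls too, by -0.62 and -0.26 (edgeR adjusted p = 1.1e-06 and 0.036). CDKN2C, an inhibitor of CDK4 and CDK6, rose by 0.33 with GATA1TSS and was lower with eHDAC6 than with GATA1TSS by 0.29 (edgeR adjusted p = 0.0059). Of 23 S phase genes, 6 were called with GATA1TSS (26.1%), 3 of them higher, with UHRF1 at 0.39 among them. With eHDAC6 10 were called (43.5%), 9 of them lower, among them POLA1 at -0.41. Against the 4 controls 0 of these 23 were called with eHDAC6, with 3 at an unadjusted p under 0.05. With GATA1TSS 2 of the 23 were higher and 0 lower. Of the 20 genes of entry and exit, 0 were called with eHDAC6 against the 4, and 1 rose and 1 fell with GATA1TSS. Of all genes tested, 1.49% were called with eHDAC6 and 10.2% with GATA1TSS against the 4.

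Markers of the cells were read in the same libraries. Of 10 K562 markers 9 were in the table, with a summed level of 8044 to 14580 CPM with NC, 6406 to 10580 with GATA1TSS and 6680 to 9468 with eHDAC6. Of the 3 macrophage markers, CD14 and CSF1R stayed at or under 1.37 CPM in every library, and CD68, which other cells also express in lysosomes, ran from 38.1 to 90.9 CPM with NC, 94.99 to 118 with GATA1TSS and 115 to 124 with eHDAC6. The fibroblast, epithelial, T cell and B cell lists summed to at most 29.1, 83.1, 45.3 and 10.3 CPM, each with 1 gene at a mean of 1 CPM or more. The part of these levels in the results was not tested.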

How the data were processed

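The deposited table holds counts of reads per gene, which the authors made from polyadenylated, strand-specific RNA libraries per the labels' protocols. The submitters' processing notes list SAMtools 0.1.19, Picard, TopHat2 2.0.8 and Bowtie2 2.1.0 and the build hg19, without saying what each did. The counting tool, and whether it used strand, is not given in the sources used here. Totals ran from 4290343 to 23205811 counts, so low counts are least precise in the shallowest library. All 24 columns were matched to samples by name, and 0 columns were left without a sample. Genes were kept by edgeR's filterByExpr (minimum count 10, total 15, proportion 0.7), scaled by TMM (factors 0.951 to 1.03) and tested with the quasi-likelihood F test of edgeR 4.0.16 (R 4.3.3, limma 3.58.1), with 1 coefficient per sgRNA in a fit of all 24 libraries. An element was the mean of its 2 sgRNAs against the mean of the 4 NC sgRNAs. P-values were adjusted by Benjamini-Hochberg over 13147 genes and called under 0.05. Log2 CPM used a prior count of 2, and DESeq2 1.42.0 was an alternative. Replicates are labelled biological, and no 2 replicates of an sgRNA agreed within sampling noise. The members, the other gene lists and the split of the controls were chosen with earlier results of these data known. Levels are given for the 12 members with the smallest p among those called for an element, and for CCNB1, CDK1, PLK1, TOP2A and MKI67 whatever their result. From each other list up to 4 called genes per comparison are named, by the size of their change. The test was checked on simulated data. Alternatives were other scaling, no filter, DESeq2, control subsets, sgRNA-level sums, and each library or sgRNA left out. The fits without the outlying libraries were added after the data were seen.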

Additional observations from a re-analysis of the deposited data

How the results depend on the processing

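Counts of the 31 members called moved with the controls used, the libraries left out and the unit of replication. The shares of all genes called are not set beside the counts in this section, so these counts describe the members alone. Against the 4 NC libraries of the smaller subset the counts were 1 for GATA1TSS, 1 for eHDAC6, 3 between the elements, 0 for GATA1TSS-Guide1, eHDAC6-Guide1 and eHDAC6-Guide2, 2 between the GATA1TSS sgRNAs and 0 among NC, and ASPM reversed to 0.25 with GATA1TSS. With the shallowest library also left out, a setting chosen after seeing the data, they were 4, 1, 4, 0, 0, 1, 1 and 0 in the same order, and ASPM was 0.21. With the control subset as a term they were 1, 1, 2, 0, 0, 0, 1 and 3, and PRC1 at -0.0063, KIF2C at -0.0081 and ANLN at -0.020 reversed with GATA1TSS. Against the 8 they were 11 for GATA1TSS, 2 between the elements, 12 and 7 for GATA1TSS-Guide1 and GATA1TSS-Guide2 and 10 for eHDAC6-Guide1. The cause was not tested.

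Without TMM the counts were 2 between the elements, 6 for GATA1TSS-Guide1 and 7 for GATA1TSS-Guide2. With no filter the count between the elements was 2, and with DESeq2 it was 2, with 7 for GATA1TSS-Guide1. Sums per sgRNA gave 1 for GATA1TSS and 0 for eHDAC6, from fewer samples, and sgRNAs pooled per element gave 6 for eHDAC6. Fits of only the groups compared gave 3 for GATA1TSS, 3 between the elements, 1 for GATA1TSS-Guide1, GATA1TSS-Guide2 and eHDAC6-Guide1 each, 4 for eHDAC6-Guide2 and 0 among NC. The count for eHDAC6 was 5 without eHDAC6-Guide1, 2 without eHDAC6-Guide2 and 4 without NC-Guide2, and that for GATA1TSS was 2 without GATA1TSS-Guide1 and 4 without GATA1TSS-Guide2 or NC-Guide1. Between the elements it was 2 without GATA1TSS-Guide1, NC-Guide2 or NC-Guide3. Without both outlying libraries, also chosen after seeing the data, it was 1 between the elements, 5 for eHDAC6-Guide1 and 0 among NC. Leaving out each library in turn gave 3 to 8 for GATA1TSS, 7 to 11 for eHDAC6, 0 to 2 between the elements, 0 to 4 for GATA1TSS-Guide1 and for GATA1TSS-Guide2, 0 to 5 for eHDAC6-Guide1, 0 to 9 for eHDAC6-Guide2, 0 to 1 between the GATA1TSS sgRNAs, 0 to 0 between the eHDAC6 sgRNAs and 0 to 11 among NC.

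With the replicate block the counts were 6 for GATA1TSS, 10 for eHDAC6 and 0 between the elements, with CCNA2 and PRC1 at an edgeR adjusted p of 0.0506 and 0.0552 with GATA1TSS. To look at replicate numbers, the mean of its sgRNA was taken from each library's log2 CPM, gene by gene. These differences were correlated between libraries of different sgRNAs. Of 84 same-numbered pairs of libraries, 8 correlated above 0.1 in these differences, and the highest value was 0.431. Of 168 pairs with different numbers, 18 did, and the highest value was 0.251. Of 24 libraries, 7 had their highest correlation in these differences with a library of their own number. The control split ran between replicates of NC-Guide3 and of NC-Guide4, at the same replicate numbers in both. Whether a replicate number marks a shared batch was not tested.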
